A study of Homo sapiens with 6 samples.

Results

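Collagens are the main structural proteins of the extracellular matrix, and their chains are encoded by a large gene family. The collagen genes described here are the protein-coding rows of the deposited count table whose symbol is COL, digits, A and digits. There are 42 of them among the 28862 genes listed, and no row was used here for COL4A3 or COL25A1. The libraries are messenger RNA from SH-SY5Y, a human neuroblastoma line with sympathetic, neuron-like features, made from 3 samples of cells given a control plasmid and 3 samples labelled as overexpressing SMN1 in the same line. Nothing in the labels tells whether the samples of a group were separate cultures, so each p-value covers the spread between libraries only, and that spread may be technical. Time after transfection, plasmid dose and the plasmid's promoter are not stated in the labels.

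Each collagen molecule is a trimer whose chains wind around each other through repeats rich in glycine and proline. Fibrillar collagens, such as types I, III, V and XI, are secreted as procollagens, trimmed by proteases and packed into fibrils. Type IV forms the sheet-like network of basement membranes, type VI forms beaded microfibrils at the cell surface, and the transmembrane collagens span the plasma membrane and shed an ectodomain. FACIT collagens, types IX and XVI among them, sit on the surface of fibrils. In peripheral nerve and sympathetic tissue much of the fibrillar collagen is laid down by fibroblasts and Schwann cells, while type IV and type VI chains are made by many cell types.

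SMN1, the gene named in the label, was not higher in the libraries carrying that label. It stood at 20.04, 20.4 and 19.6 CPM in the controls and 14.8, 16.6 and 16.6 CPM with the SMN1 label (edgeR log2 fold change -0.32, SE 0.061, adjusted p = 9.40e-05). SMN2, its near-identical copy, was lower too, at 9.40 ± 0.358 and 7.63 ± 0.427 CPM (edgeR log2 fold change -0.30, adjusted p = 0.0031), and reads of the pair may be split between them. Whether reads from the plasmid would be counted under SMN1 is not known here, so these values do not check the label fully. Directions below are between libraries as labelled. CPM are read counts relative to the library total, with totals scaled by TMM factors, and group values are mean ± SD over n = 3 libraries. Libraries held 30379242 to 40275498 reads, so that 3 reads, the upper limit that a count of 0 allows, equal 0.0721 to 0.103 CPM. That limit covers counting error only. Of 11 adrenergic neuroblast markers tested, 5 were higher and 5 lower, with summed levels of 25976 to 27758 CPM in the controls and 33360 to 34573 CPM in the SMN1-labelled group. DBH, which makes noradrenaline, stood at 1329 ± 64.4 and 1731 ± 28.9 CPM, whereas TH, the tyrosine hydroxylase gene, was near 0 (0.169 ± 0.122 and 0.0201 ± 0.0174 CPM). With the length and GC correction described below, 6 of these markers were higher and 2 lower, and without the third SMN1-labelled library 5 were higher and 3 lower.

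Of the 42 collagen genes, 23 passed the filter on low counts. Among these, 2 were higher and 11 lower in the SMN1-labelled libraries (edgeR quasi-likelihood test, adjusted p at most 0.05), and 10 were not past the threshold. Over all 15829 genes tested, 28.0% were called higher and 28.2% lower, 56.2% in all. Of the 23 members, 7 were called and at least 1.5-fold lower, against 7.76% of all genes, and 0 were called and at least 1.5-fold higher, against 4.31%. The median log2 fold change was -0.21 over the 23 members and 0.00087 over all genes tested. COL6A3 passed the filter through the control libraries alone and COL17A1 through 3 libraries of both groups together, so these counts describe the members that passed and support nothing further. In bulk libraries, fewer cells of a kind and less RNA per cell cannot be told apart.

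**Figure D1:**
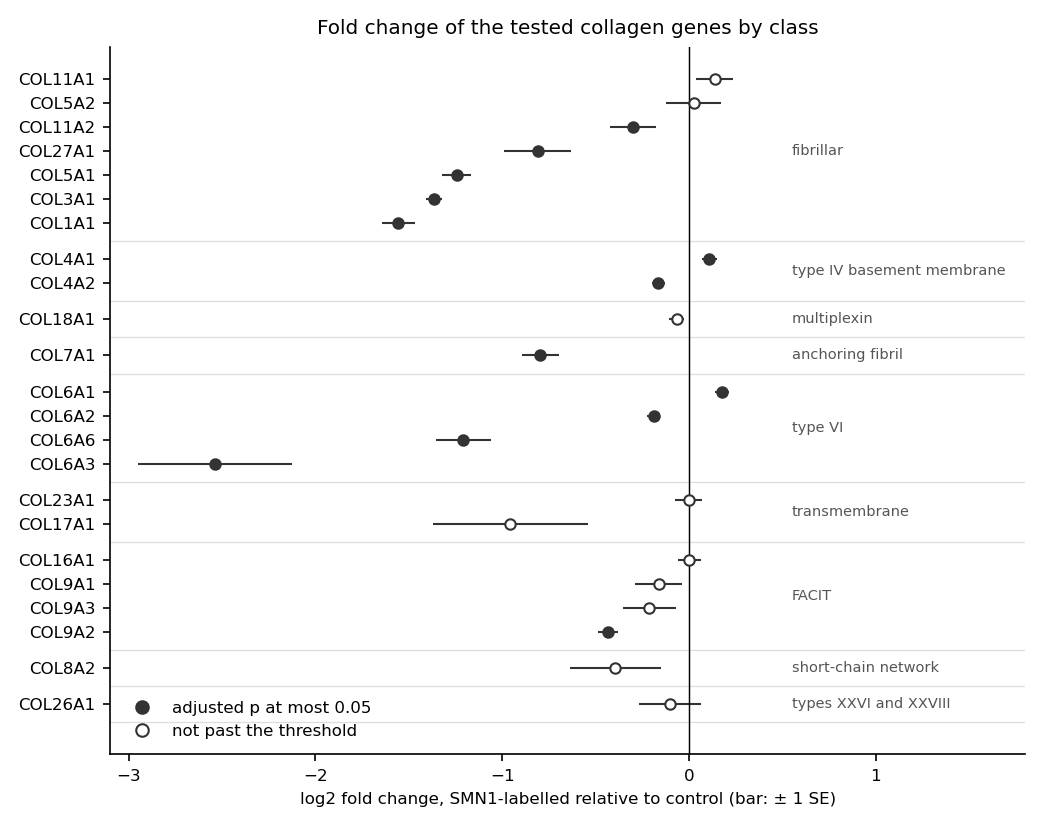
Log2 fold change (x axis, SMN1-labelled relative to control, bars ± 1 SE) of the 23 tested collagen genes, grouped by class. Filled points are past an edgeR adjusted p of 0.05: 11 lie to the left of 0 and 2, COL4A1 and COL6A1, to the right.

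The other 19 members were too low to test. In 12 of them no library held more than 3 reads: COL5A3, COL4A4, COL4A5, COL4A6, COL15A1, COL6A5, COL12A1, COL14A1, COL20A1, COL21A1, COL10A1 and COL8A1. The remaining 7 were COL1A2, COL24A1, COL2A1, COL13A1, COL19A1, COL22A1 and COL28A1, with at most 13 reads in a library. COL1A2 encodes the partner chain of COL1A1 in type I collagen. It had 10, 7 and 5 reads in the controls and 1, 1 and 0 in the SMN1-labelled libraries. It was the 1 untested member that was called lower when the filter was left out (edgeR adjusted p = 0.000267).

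Levels of different genes were compared per length, on the deposited FPKM scale. In the control libraries COL6A2 was highest at 25.1 ± 0.330 FPKM and COL6A1 next at 15.8 ± 0.0115 FPKM. COL3A1 (8.92 ± 0.397), COL18A1 (8.86 ± 0.252) and COL4A2 (8.44 ± 0.249 FPKM) followed within each other's spread. Below them came COL9A2 at 6.49 ± 0.0850, COL4A1 at 4.67 ± 0.165, COL23A1 at 2.53 ± 0.0929 and COL1A1 at 2.20 ± 0.159 FPKM. In the SMN1-labelled libraries the order at the top was COL6A2 (23.4 ± 0.697), COL6A1 (19.04 ± 0.622), COL18A1 (9.0 ± 0.425) and COL4A2 (8.003 ± 0.142 FPKM). COL4A1 (5.36 ± 0.269) and COL9A2 (5.12 ± 0.318) then lay within each other's spread, and COL3A1 stood below both at 3.68 ± 0.0361 FPKM. This order depends on the length used: per kilobase of the longest coding transcript, an alternative chosen after seeing the data, COL4A2 came second in the controls at 27.4 ± 0.495 CPM, above COL6A1 at 22.6 ± 0.265 and below COL6A2 at 42.3 ± 0.266 CPM.

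Summed over members, the collagens came to 90.7 ± 1.89 FPKM in the controls and 83.5 ± 2.21 FPKM under the SMN1 label. The FPKM of all genes also summed to less there, 279585 to 280450 against 308575 to 313782 in the controls. The 2 collagen totals are therefore not a fall relative to all FPKM. The fibrillar class held 15.8% ± 0.533 of the collagen FPKM sum in the controls and 8.31% ± 0.172 with the SMN1 label. Type VI held 45.5% ± 0.612 and 50.98% ± 0.241, type IV 14.4% ± 0.176 and 16.0% ± 0.270, and the transmembrane class 2.86% ± 0.0661 and 3.26% ± 0.0979. In each of these 4 shares, which are parts of 1 sum, the groups were apart. The length behind the FPKM follows all annotated exons joined: dividing reads by FPKM gave 20440 nt for COL4A2, near its joined exon length of 19293 nt, while its longest coding transcript has 6494 nt. With CPM per kilobase of the longest coding transcript, type IV held 24.6% ± 0.278 of the control sum and the fibrillar class 12.5% ± 0.416, so which of them stood higher in the control libraries turned with the length used. The fibrillar share in the SMN1-labelled libraries was 6.39% ± 0.115 on that scale, again below the control share.

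**Figure D2:**
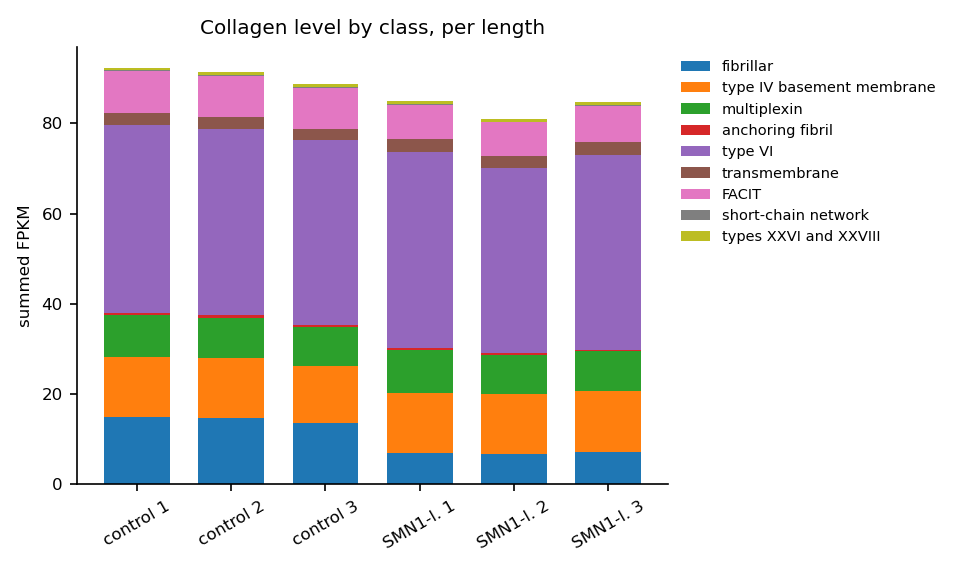
Summed FPKM (y axis) of collagen genes in each library, stacked by class. The fibrillar segment reaches 13.5 to 14.9 FPKM in the controls and 6.81 to 7.11 FPKM in the SMN1-labelled libraries, while the type VI segment stays between 40.9 and 43.5 FPKM in all 6.

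Fibrillar collagens held the largest decreases among members above 5 CPM. Of the 7 tested, COL1A1, COL3A1, COL5A1, COL27A1 and COL11A2 were lower in the SMN1-labelled libraries and COL5A2 and COL11A1 did not pass (median log2 fold change -0.81, against 0.00087 for all genes). COL3A1 encodes the single chain of type III collagen, which makes thin reticular fibrils. It was at 67.5, 66.9 and 63.5 CPM in the controls and at 25.5, 25.6 and 25.7 CPM under the SMN1 label. The groups stood far apart relative to their spread, a 2.58-fold decrease (edgeR log2 fold change -1.36 ± 0.043 SE, adjusted p = 2.13e-17).

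COL1A1, at chr17:50183289-50201632 on the minus strand (GRCh38, GENCODE v29), encodes the major chain of type I collagen, the main fibril of skin, bone and tendon. Its control libraries had 22.1, 22.7 and 20.2 CPM and its SMN1-labelled libraries 7.35, 6.20 and 8.76 CPM. The highest SMN1-labelled value was under the lowest control value, and the gene was 2.94-fold lower (edgeR log2 fold change -1.56 ± 0.087 SE, adjusted p = 5.80e-13). Reads of its partner COL1A2 were scarce in both groups, as given above, so type I message in these cells was nearly all COL1A1. Type I trimers in tissue usually join a pair of COL1A1 chains with a COL1A2 chain, and trimers of COL1A1 alone are also known.

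Type V collagen is a minor fibril component that starts fibril growth. COL5A1 fell and COL5A2 did not pass. COL5A1 was at 16.9, 17.6 and 15.6 CPM in the controls and 6.72, 7.50 and 6.87 CPM under the SMN1 label. It fell 2.37-fold without overlap (edgeR log2 fold change -1.24 ± 0.076 SE, adjusted p = 2.45e-12). COL5A2 stood at 2.86, 3.70 and 2.45 CPM against 3.26, 3.20 and 2.71 CPM, with the groups interleaved (edgeR log2 fold change 0.024 ± 0.148 SE, adjusted p = 0.904). Reads of COL5A1 per read of COL5A2 were 5.68 ± 0.837 in the controls and 2.32 ± 0.239 under the SMN1 label. An exact two-sided permutation test of this ratio gave p = 0.1, the smallest that 3 against 3 libraries can give, and 0.12 after Benjamini-Hochberg adjustment over the 6 chain pairs compared.

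COL3A1 and COL5A2 are also neighbours. On GRCh38, in GENCODE v29, COL3A1 occupies chr2:188974320-189012746 on the plus strand and COL5A2 chr2:189031896-189225312 on the minus strand, with 19149 bases between their ends. Reads of COL3A1 per read of COL5A2 went from 22.5 ± 4.03 to 8.45 ± 0.914 (exact permutation p = 0.1, adjusted 0.12). The ranges of this ratio did not overlap, with every control library at 18.1 or more and every SMN1-labelled library at 9.49 or less.

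Type XI collagen, found with type II in cartilage fibrils and in minor amounts elsewhere, was low. COL11A1 stood at 6.19, 5.99 and 5.10 CPM against 6.60, 6.37 and 6.05 CPM and did not pass (edgeR log2 fold change 0.14 ± 0.099 SE, adjusted p = 0.248). COL11A2 was at 6.46, 4.72 and 6.48 CPM in the controls and 4.81, 4.21 and 5.41 CPM under the SMN1 label, with overlap. Its call was marginal (edgeR log2 fold change -0.30 ± 0.123 SE, adjusted p = 0.0425) and was lost in 9 of 17 alternatives. Leaving out the first or the third control library, or the first or the second SMN1-labelled library, was enough to lose it (edgeR adjusted p = 0.192, 0.173, 0.0698 and 0.222, within 0.00371 to 0.486 over all). Reads of COL11A1 per read of COL11A2 were 1.01 ± 0.245 and 1.33 ± 0.201 (exact permutation p = 0.2, adjusted 0.2). COL27A1, a fibrillar chain of cartilage with a short helix, fell 1.75-fold from 2.30 ± 0.412 to 1.31 ± 0.0581 CPM (edgeR adjusted p = 0.000423). On log2(FPKM + 1) without a filter COL27A1 was no longer past the threshold (limma adjusted p = 0.0698, within 4.70e-05 to 0.0698 over its alternatives).

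**Figure D3:**
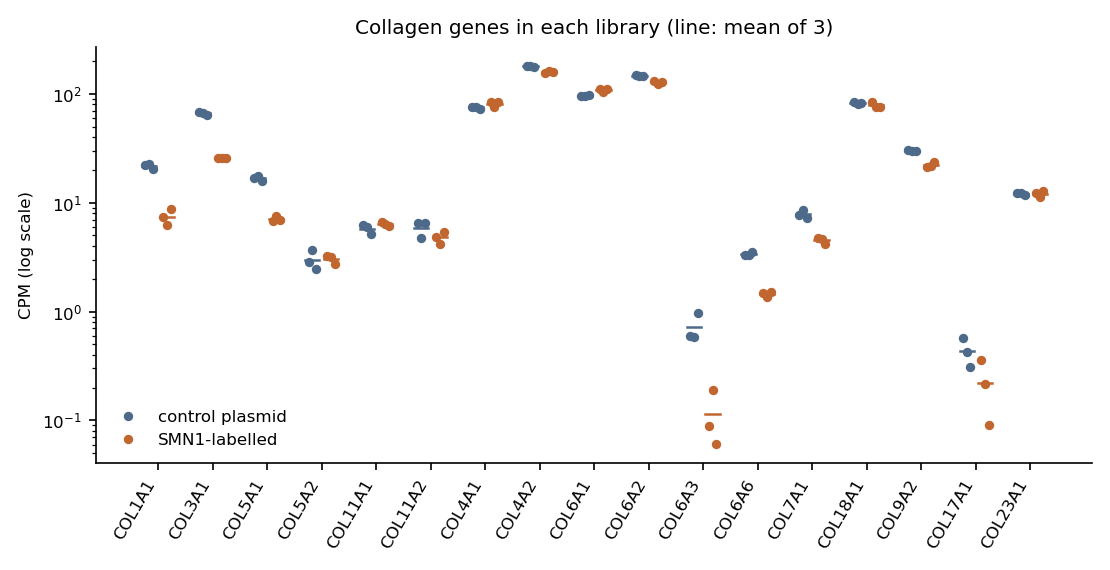
CPM (y axis, log scale) of 17 collagen genes in each control and each SMN1-labelled library, with the group mean as a line. COL1A1, COL3A1, COL5A1, COL6A6 and COL7A1 separate clearly, with COL3A1 at 63.5 to 67.5 CPM against 25.5 to 25.7 CPM, while COL5A2, COL11A1 and COL23A1 overlap between groups.

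The basement membrane network rested on COL4A1 and COL4A2, whose products join as 2 α1 chains and 1 α2 chain. The other type IV members listed, COL4A4, COL4A5 and COL4A6, had at most 2 reads in a library. The 2 expressed genes lie head to head on chromosome 13. Their RefSeq start sites (GRCh38.p14) are 126 bases apart, so the windows from 250 bases before to 50 bases after each start share 226 bases, chr13:110307108-110307333. Both windows are shown because the genes were called in opposite directions although they start from 1 shared stretch, each 5′ to 3′ on its own gene's strand, COL4A1 at chr13:110307108-110307407 (minus) and COL4A2 at chr13:110307034-110307333 (plus). Capitals mark, on either strand, CCAAT (the CCAAT box), GGGCGG (the GC box) and TATAAA (the TATA box).
COL4A1: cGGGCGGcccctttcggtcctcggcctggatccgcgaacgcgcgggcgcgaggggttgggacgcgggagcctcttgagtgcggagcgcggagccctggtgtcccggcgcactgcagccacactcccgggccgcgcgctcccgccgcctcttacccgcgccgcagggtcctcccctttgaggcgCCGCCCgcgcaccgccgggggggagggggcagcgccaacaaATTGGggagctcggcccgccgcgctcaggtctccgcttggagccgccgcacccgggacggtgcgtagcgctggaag
COL4A2: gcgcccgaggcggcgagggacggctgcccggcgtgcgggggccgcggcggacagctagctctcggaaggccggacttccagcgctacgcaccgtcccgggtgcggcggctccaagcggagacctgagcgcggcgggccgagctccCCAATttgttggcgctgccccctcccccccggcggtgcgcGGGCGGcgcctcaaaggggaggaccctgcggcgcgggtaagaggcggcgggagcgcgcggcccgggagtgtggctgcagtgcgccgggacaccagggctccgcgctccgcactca
The CCAAT match in the COL4A2 window and the ATTGG in the COL4A1 window are the same site read from opposite strands. COL4A1 had 2 GC boxes and COL4A2 had 1, and neither window had a TATA box.

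COL4A1 and COL4A2 differed in direction. COL4A2 was at 180.1, 179 and 174 CPM in the controls and 156, 160.2 and 159.8 CPM under the SMN1 label. It was 1.12-fold lower with no overlap (edgeR log2 fold change -0.16 ± 0.034 SE, adjusted p = 0.000236). COL4A1 was at 76.1, 75.8 and 72.8 CPM in the controls and 83.4, 76.2 and 83.1 CPM under the SMN1 label. The second SMN1-labelled library lay just above the highest control library, and the gene was 1.08-fold higher (edgeR log2 fold change 0.11 ± 0.041 SE, adjusted p = 0.0277).

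These were small changes. The COL4A1 call was lost without the third control library or without the first or the third SMN1-labelled library (adjusted p = 0.107, 0.0894 and 0.096), and with upper-quartile factors (0.057), within 0.00107 to 0.107 over its alternatives. The COL4A2 call was lost on FPKM values and once length and GC content were fitted, where its log2 fold change was -0.025 (edgeR adjusted p = 0.569). The ratio within a library does not depend on its size factor. Reads of COL4A1 per read of COL4A2 were 0.423, 0.422 and 0.418 in the controls and 0.533, 0.475 and 0.52 with the SMN1 label. The log2 ratio was 0.27 higher in the SMN1-labelled group (exact two-sided permutation p = 0.1, adjusted 0.12). In GENCODE v29 the gene bodies overlap on opposite strands by 1422 bases, and whether the counting used strand is not known here, so reads from that stretch could be shared.

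Among other collagens of basement membranes and their attachments, COL7A1 fell and COL18A1 did not pass. COL18A1 encodes the multiplexin that carries endostatin at its end. It was at 84.2, 80.4 and 81.6 CPM in the controls and 83.2, 76.1 and 76.0 CPM under the SMN1 label, which overlapped (edgeR log2 fold change -0.065 ± 0.041 SE, adjusted p = 0.181). Without the first SMN1-labelled library COL18A1 was called lower (edgeR adjusted p = 0.0226). SLC19A1, a folate transporter gene with 581 reads on average, overlaps COL18A1 on the other strand. COL7A1 encodes the anchoring fibril that ties basement membrane to underlying matrix. It was at 7.69, 8.55 and 7.27 CPM in the controls and 4.78, 4.62 and 4.14 CPM under the SMN1 label, 1.74-fold lower without overlap (edgeR log2 fold change -0.80 ± 0.099 SE, adjusted p = 3.25e-07).

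The windows at the starts of COL5A1 (chr9:134641553-134641852, plus strand) and COL7A1 (chr3:48595280-48595579, minus strand), both genes that fell, are shown for comparison with the type IV pair, with the same motifs in capitals.
COL5A1: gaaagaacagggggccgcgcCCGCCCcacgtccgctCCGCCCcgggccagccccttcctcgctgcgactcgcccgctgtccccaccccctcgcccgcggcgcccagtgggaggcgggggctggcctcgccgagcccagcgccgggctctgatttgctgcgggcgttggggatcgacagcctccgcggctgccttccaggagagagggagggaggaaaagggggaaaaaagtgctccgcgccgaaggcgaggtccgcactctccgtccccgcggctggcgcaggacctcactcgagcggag
COL7A1: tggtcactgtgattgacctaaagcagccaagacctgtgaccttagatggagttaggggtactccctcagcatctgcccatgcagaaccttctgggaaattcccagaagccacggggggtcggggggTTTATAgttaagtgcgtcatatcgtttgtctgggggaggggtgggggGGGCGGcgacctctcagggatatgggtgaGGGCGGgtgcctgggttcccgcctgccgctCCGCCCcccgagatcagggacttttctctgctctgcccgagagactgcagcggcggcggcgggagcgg
Windows of RefSeq on GRCh38.p14 were matched by symbol for 18 of the 23 tested members, in 24 windows because some genes have several starts. GGGCGG was found in 17 of the 24 windows and in 45.0% of all 35116 windows, CCAAT in 7 of 24 and 34.6%, and TATAAA in 5 of 24 and 11.5%. TGANTCA, the AP-1 site, was in 0 of 24 windows and 7.71% of all. No searched motif overlapped another in the 4 windows printed. Such matches describe letters only: nothing was measured about binding.

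Type VI collagen is built from COL6A1, COL6A2 and a longer chain from COL6A3, COL6A5 or COL6A6. COL6A1 and COL6A2 are neighbours on chromosome 21, both on the plus strand, at 45981737 to 46005050 and 46098097 to 46132849 (GRCh38, GENCODE v29). COL6A1 was at 95.3, 95.1 and 97.1 CPM in the controls and 111, 104 and 109.8 CPM under the SMN1 label. It was 1.13-fold higher, with no overlap (edgeR log2 fold change 0.18 ± 0.037 SE, adjusted p = 0.000247). COL6A2 was at 147, 146 and 147 CPM against 132, 124 and 129 CPM, 1.14-fold lower and again without overlap (edgeR log2 fold change -0.19 ± 0.035 SE, adjusted p = 7.21e-05). Among all tested genes the 3 libraries of the SMN1-labelled group lay wholly above the controls for 30.4% and wholly below for 30.2%. Of the 23 members 2 lay above and 11 below.

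Reads of COL6A1 per read of COL6A2 were 0.654 ± 0.00824 in the controls and 0.844 ± 0.00444 in the SMN1-labelled libraries, a log2 difference of 0.37. The ranges were far apart, and the exact permutation p was 0.1 (adjusted 0.12). After the length and GC correction COL6A1 was still higher (log2 fold change 0.34), whereas COL6A2 was no longer called (log2 fold change -0.011, edgeR adjusted p = 0.802). The decrease of COL6A2 was therefore lost with that correction, and the 2 genes remained apart under it.

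**Figure D4:**
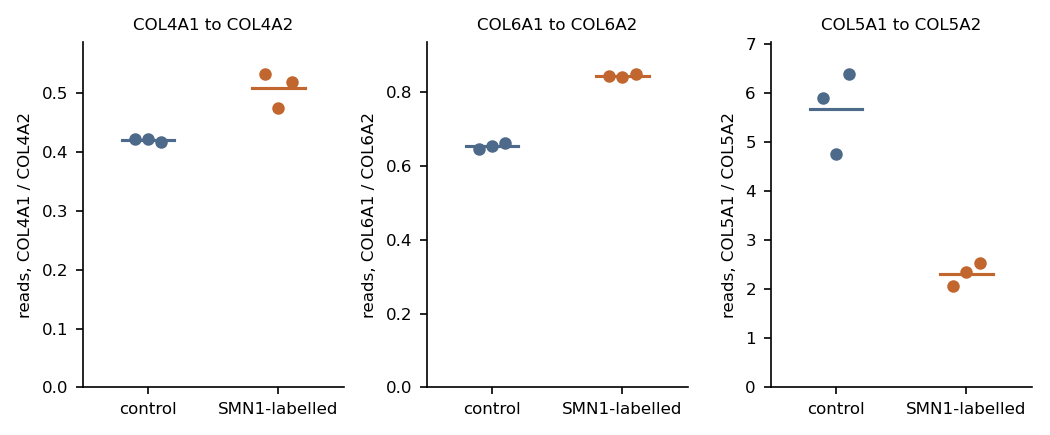
Reads of one chain per read of its partner (y axes, each from 0) in each library, with group means as lines, for COL4A1 to COL4A2, COL6A1 to COL6A2 and COL5A1 to COL5A2. The first 2 ratios are higher in the SMN1-labelled libraries (0.654 to 0.844 for type VI) and the third is lower (5.68 to 2.32).

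The longer type VI chains were scarce. COL6A6 was at 3.30, 3.31 and 3.52 CPM in the controls and 1.49, 1.37 and 1.52 CPM under the SMN1 label, 2.31-fold lower (edgeR log2 fold change -1.21 ± 0.147 SE, adjusted p = 2.08e-07). COL6A3, the usual partner of the pair in connective tissue, had 18, 18 and 28 reads in the controls and 3, 8 and 2 in the SMN1-labelled libraries. These are 0.599, 0.59 and 0.965 CPM against 0.0896, 0.192 and 0.0608 CPM (edgeR log2 fold change -2.54 ± 0.412 SE, adjusted p = 1.32e-05), a fold that rests on few reads. COL6A5 had at most 2 reads in a library. Per length, COL6A6 stood at 0.317 ± 0.0115 and COL6A3 at 0.0333 ± 0.00577 FPKM in the control libraries, against 15.8 FPKM for COL6A1, so the chains of the type VI trimer were far from equal in message. Type VI as a class had 1 gene higher and 3 lower of 4 tested, against 28.0% and 28.2% of all genes tested. COL6A3, 1 of the 3, passed the filter through the controls alone.

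The transmembrane class gave no call. COL23A1, whose product is shed from the cell surface, was at 12.2, 12.3 and 11.7 CPM in the controls and 12.3, 11.3 and 12.7 CPM under the SMN1 label. The groups interleaved (edgeR log2 fold change -0.0030 ± 0.071 SE, adjusted p = 0.976), although the length and GC correction gave 0.26 (edgeR adjusted p = 0.00375). COL17A1, a hemidesmosome collagen of epithelia, was at 0.566, 0.426 and 0.31 CPM against 0.358, 0.216 and 0.0913 CPM, which overlapped and narrowly missed the threshold (edgeR log2 fold change -0.96 ± 0.415 SE, adjusted p = 0.0532). It was called in 5 alternatives, limma-voom (0.0323) and leaving out the third control (0.0363) or first SMN1-labelled library (0.0162) among them. COL13A1, found at neuromuscular junctions, had 8, 3 and 5 reads in the controls and 4, 6 and 1 under the SMN1 label.

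Of the FACIT genes, COL9A2 fell and its partners did not pass. Type IX collagen joins COL9A1, COL9A2 and COL9A3 on the surface of cartilage fibrils. COL9A2 was at 30.2, 29.6 and 30.1 CPM in the controls and 21.3, 21.6 and 23.7 CPM under the SMN1 label, 1.35-fold lower without overlap (edgeR log2 fold change -0.43 ± 0.052 SE, adjusted p = 1.69e-07). COL9A1 (3.65 ± 0.397 and 3.26 ± 0.106 CPM) and COL9A3 (2.85 ± 0.274 and 2.46 ± 0.208 CPM) had log2 fold changes of -0.16 and -0.21 (edgeR adjusted p = 0.277 and 0.206). Reads of COL9A1 per read of COL9A2 were 0.122 ± 0.0143 and 0.147 ± 0.0125 (exact permutation p = 0.1, adjusted 0.12). COL9A3 overlaps TCFL5, a transcription factor gene on the other strand with 911 reads on average, against 86.7 for COL9A3. COL16A1 stood at 17.2 ± 0.252 and 17.2 ± 0.913 CPM (edgeR adjusted p = 0.989). COL8A2, a short-chain collagen of corneal basement membrane, stood at 0.903 ± 0.0995 and 0.691 ± 0.0572 CPM, and COL26A1 at 2.01 ± 0.169 and 1.87 ± 0.241 CPM (adjusted p = 0.173 and 0.618).

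Setting the classes side by side, calls were lower for 5 of 7 fibrillar genes, 1 of 2 in type IV, 3 of 4 in type VI, 0 of 2 in the transmembrane class and 1 of 4 FACIT genes. Over all genes tested 28.2% were lower, and with 2 to 7 genes per class these counts are descriptions only. The medians of log2 fold change were -0.81, -0.027, -0.70, -0.48 and -0.19 in that order. With the length and GC correction 4 fibrillar, 0 type IV and 2 type VI genes were lower, and the type IV median was 0.071. The difference between classes was not tested, and the type VI and transmembrane medians each lean on a gene under 1 CPM in both groups, of which COL6A3 passed the filter through the controls alone. Summed CPM of the fibrillar class were 122 ± 5.396 and 55.9 ± 1.12, of type IV 253 ± 5.07 and 239.7 ± 3.24, of type VI 246 ± 1.77 and 239 ± 7.77, and of the transmembrane class 12.7 ± 0.424 and 12.4 ± 0.638. The fibrillar sums were apart by far more than their spread. Those of type IV did not overlap either (247 to 256 and 236 to 243 CPM), while those of type VI and the transmembrane class did. In summed FPKM the means of type IV (13.1 ± 0.421 and 13.4 ± 0.246) and type VI (41.3 ± 0.325 and 42.6 ± 1.32) were instead higher under the SMN1 label. So was the transmembrane mean (2.60 ± 0.110 and 2.73 ± 0.147 FPKM), and the groups overlapped in each of these classes.

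Tested collagen genes were longer and richer in GC than tested genes in general, with median joined exons of 7453 nt against 4575 nt and median GC of 61.7% against 48.8%. With both features corrected for, 3 members were higher and 8 lower. COL3A1 was then at -1.36, COL1A1 at -1.45, COL5A1 at -1.14, COL6A6 at -1.39 and COL7A1 at -0.66 on the log2 scale, all still called. The decrease of COL9A2 was still called but smaller, at -0.21 in place of -0.43 (edgeR adjusted p = 0.0029).

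Genes that build, export, trim and bind collagen were read from lists with 74 entries, of which 72 were found and 64 tested: 18 (28.1%) were higher, 23 (35.9%) lower and 23 not past the threshold, against 28.0% and 28.2% of all genes tested. The share of higher genes is thus near that of all genes, and the counts of single lists, each of 6 to 16 tested genes, are descriptions to be read against the same shares. Propeptide processing had 4 of 7 lower, 0 higher and a median log2 fold change of -0.55. These enzymes clip the ends of procollagens so that fibrils can form. ADAMTS2, the N-propeptidase of types I to III, was at 5.76, 5.63 and 4.998 CPM in the controls and 0.806, 1.06 and 1.13 CPM under the SMN1 label, 5.45-fold lower (edgeR adjusted p = 2.53e-12). Its relative ADAMTS14 fell 3.18-fold (2.55 ± 0.277 to 0.805 ± 0.1004 CPM). PCOLCE, which enhances cleavage of the C-propeptide, fell 1.46-fold from 250 ± 7.77 to 171 ± 4.58 CPM. ADAMTS3 was called lower at 0.882 ± 0.220 and 0.508 ± 0.118 CPM (edgeR adjusted p = 0.0177), but not without the second or the third control library or the second SMN1-labelled library (0.0962, 0.0615 and 0.0989). BMP1, the main C-propeptidase, named after its value was seen, did not pass (32.4 ± 0.652 and 31.5 ± 1.89 CPM, edgeR adjusted p = 0.572).

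Of the modification and folding genes 5 of 16 were higher and 5 lower, near the shares of all genes (median log2 fold change 0.032). The balance moved with the processing: 10 were higher and 2 lower with the length and GC correction, 9 and 2 on either filtered FPKM scale, and 3 and 6 without the third control library, where 17 were tested. The endoplasmic reticulum peptidyl-prolyl isomerase FKBP14 rose 1.67-fold (8.42 ± 0.521 to 14.0 ± 1.12 CPM) and P4HA1, a catalytic subunit of prolyl 4-hydroxylase, 1.47-fold (14.0 ± 0.868 to 20.5 ± 1.61 CPM). P3H3, of the prolyl 3-hydroxylase family, fell 1.31-fold, and its relative P3H4 1.18-fold, a change that was 0.00058 on the log2 scale after the length and GC correction. SERPINH1, the collagen chaperone HSP47, named after its value was seen, stood at 55.5 ± 0.876 and 57.4 ± 1.62 CPM (edgeR adjusted p = 0.311).

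Procollagen export had 6 of 11 genes higher and 1 lower (median log2 fold change 0.23), or 4 higher and 2 lower with the length and GC correction (median 0.014). The gene that fell was CREB3L1, a membrane-bound transcription factor known to act on type I collagen genes in bone, at 2.66, 2.62 and 2.96 CPM in the controls and 0.776, 0.625 and 0.70 CPM under the SMN1 label. That is a 3.93-fold decrease (edgeR adjusted p = 3.54e-09). MIA3, which encodes the cargo receptor TANGO1, rose 1.2-fold (162 ± 1.73 to 195 ± 6.81 CPM), SAR1A 1.17-fold and SEC23A 1.40-fold. MIA3 and SAR1A were not called after the length and GC correction (edgeR adjusted p = 0.749 and 0.805).

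Cross-linking genes had 2 of 6 higher and 1 lower. TGM2, a transglutaminase, rose 1.88-fold (16.6 ± 1.002 to 31.3 ± 1.17 CPM) and the lysyl oxidase relative LOXL2, which acts on type IV collagen, 1.39-fold (17.4 ± 1.22 to 24.2 ± 1.57 CPM). LOXL3 was called 1.14-fold lower (edgeR adjusted p = 0.0471) in the design used but not in 11 of 17 alternatives, among them without the second or the third control (0.21 and 0.0548) or the second or the third SMN1-labelled library (0.198 and 0.0673). Among receptors 4 of 11 were higher and 3 lower. There were 2 called higher on the FPKM scales, without the first or the third control library, without the third SMN1-labelled library, or with DESeq2. ITGB1, the β1 integrin shared by the collagen-binding integrins, rose 1.41-fold (124 ± 1.23 to 175 ± 6.71 CPM) and the collagen-activated kinase DDR2 1.43-fold (44.3 ± 0.472 to 63.4 ± 1.63 CPM). MRC2, an endocytic collagen receptor, fell 1.18-fold and ITGA3 1.26-fold.

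Partner matrix proteins were lower for 9 of 13 genes and higher for 1 (median log2 fold change -0.51). Of the 9, BGN and TGFBI, named after their values were seen, passed the filter through the controls alone, so they could only be called lower, and the count supports nothing further. FBLN1, a fibulin of basement membranes and elastic fibres, fell 1.51-fold (143 ± 0.434 to 94.5 ± 1.82 CPM). SPARC, a collagen-binding matricellular protein, fell 1.52-fold (89.9 ± 2.01 to 59.2 ± 2.21 CPM). NID1, the nidogen that links laminin to type IV collagen, fell 1.52-fold and HSPG2, which encodes perlecan, 1.66-fold.

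**Figure D5:**
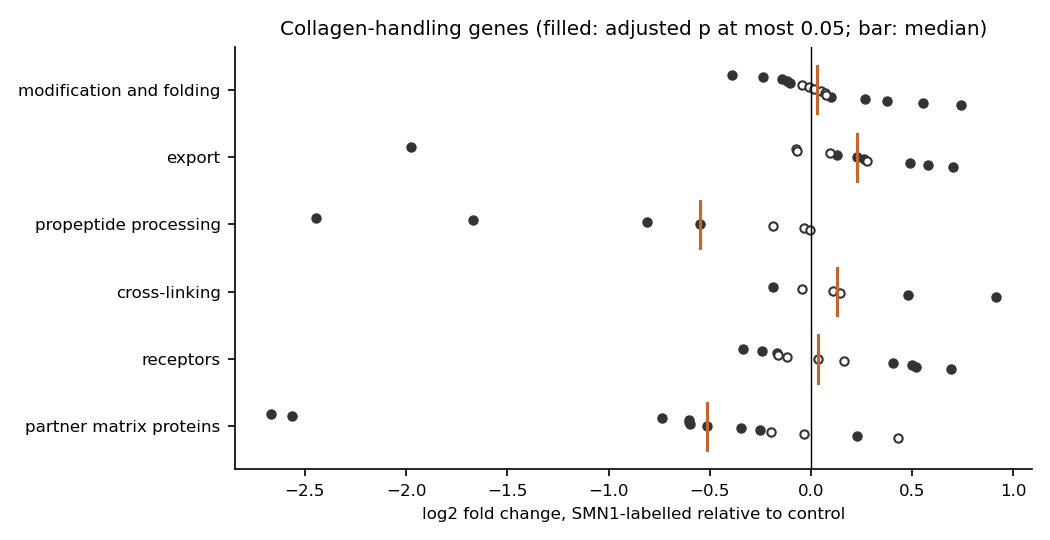
Log2 fold change (x axis) of the 64 tested genes that modify, export, process, cross-link or bind collagen, by list, with filled points past an edgeR adjusted p of 0.05 and the list median as a bar. Propeptide processing has its median at -0.55 and ADAMTS2 at -2.45, whereas the export list has its median at 0.23 with CREB3L1 apart at -1.98.

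Marker lists of mesenchymal-type neuroblastoma, fibroblast, Schwann and endothelial cells did not all move the same way. Of the 10 mesenchymal-type neuroblastoma markers listed, 6 were lower, 0 higher and 4 (PRRX1, YAP1, WWTR1 and NOTCH2) did not pass. Over all genes tested 28.2% were lower. The markers summed to 909 to 947 CPM in the controls and 659 to 730 CPM under the SMN1 label. TWIST1 made up most of that sum, at 704 ± 17.7 and 565 ± 37.0 CPM. With the length and GC correction TWIST1 was no longer called (log2 fold change -0.025, edgeR adjusted p = 0.608), while 7 of the 10 were lower. VIM, the vimentin gene, went from 189 ± 3.25 to 92.6 ± 1.49 CPM and SNAI2 from 4.09 ± 0.514 to 2.00 ± 0.232 CPM. Of 10 fibroblast markers 7 were tested, 1 was higher and 2 lower, with sums of 252 to 266 and 233 to 252 CPM (3 higher and 1 lower with the length and GC correction). The list was not uniform. THY1 stood at 178 ± 8.98 and 159 ± 9.15 CPM, PDGFRB at 30.9 ± 0.625 and 30.04 ± 1.195 CPM, ACTA2 at 26.6 ± 0.879 and 26.9 ± 1.14 CPM, TAGLN at 12.3 ± 0.866 and 12.6 ± 0.405 CPM and PDGFRA at 8.09 ± 0.9285 and 11.5 ± 0.198 CPM. FAP was called lower, from 0.506 ± 0.224 to 0.129 ± 0.0341 CPM, and passed the filter through the controls alone. POSTN had no reads in the controls, DCN stood at 0.155 ± 0.0824 and 0.110 ± 0.0749 CPM, and LUM at 0.580 ± 0.316 and 0.767 ± 0.240 CPM. Of 5 Schwann cell markers listed 1 was higher and 2 lower, with sums of 14.97 to 15.2 and 18.6 to 19.2 CPM. Endothelial markers summed to at most 0.688 CPM. The part of the mesenchymal genes in the collagen decreases was not tested.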

How the data were processed

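Messenger RNA libraries of 6 SH-SY5Y samples were sequenced as stranded paired reads, per the labels' protocols. HISAT2, DESeq2 and GRCh38 are named in the submitters' processing notes, without versions. Of the counter, its strand setting and the annotation the sources used here say nothing (not given). The authors deposited whole-number read counts per gene, not normalized, and FPKM, scaled by length and depth and rounded to 2 decimals.

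Counts were tested with edgeR 4.0.16 in R 4.3.3 (TMM, default filterByExpr, quasi-likelihood, two-sided, Benjamini-Hochberg over 15829 genes). SE was taken as the size of the log2 fold change divided by the root of the F statistic. Alternatives used DESeq2 1.42.0, limma 3.58.1 (voom, or log2(FPKM + 0.1) and log2(FPKM + 1) at 0.5 FPKM or more in 3 libraries), other scalings and filters, the replicate number as a block, each library left out, and splines of length and GC content (GENCODE v29). Such FPKM fold changes are differences of log2(value + pseudocount), which understates low genes.

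Tested on simulated data (15829 genes of this comparison), the fit recovered 83.6% of changes of 1.5-fold, 97% at 2-fold and 98.5% at 4-fold. It called 11 of 15449 unchanged genes. Most genes were thus unchanged in that setting, whereas 56.2% of all genes tested were called in the deposited data. How the fit performs with so large a share of calls was not tested. No library was treated as a repeat of another, since pairs within a group gave chi-square values of 2.51 to 4.36 per degree of freedom. Members and lists were chosen with earlier results of these data known. Named by rule were all tested collagens (every library for types IV, VI, the transmembrane class and called members at 5 CPM or more) and, of each pathway list, up to 4 called genes in order of p, plus ADAMTS2. Marker genes, picked after their values were seen, and the genes marked so in the text fall outside this rule. Some list genes count in their list but are not reported here by name.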

Additional observations from a re-analysis of the deposited data

How the results depend on the processing

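Over 17 alternatives, 8 of the 13 called members kept their direction and call wherever they were fitted: COL1A1, COL3A1, COL5A1, COL7A1, COL9A2, COL6A1, COL6A3 and COL6A6. Only 14 alternatives fitted COL6A3 and 15 fitted COL6A6. COL6A3 also passed the filter through the controls alone, so it could only be called lower and its kept call supports nothing further. COL11A2, COL27A1, COL4A1, COL4A2 and COL6A2 lost their call in at least 1. The number of members called higher was 1 with upper-quartile factors in place of 2, 1 to 2 when a library was left out, and 0 at 1.5-fold or more. The number called lower was 6 on log2(FPKM + 0.1) and 6 on log2(FPKM + 1) with the filter, where only 16 members were tested, 7 at 1.5-fold or more, and 10 to 12 when a library was left out. Of all calls 49.8% were higher on the counts, 62.6% on either filtered FPKM scale and 61.9% on log2(FPKM + 1) unfiltered. Of the called list genes reported here, 5 changed sign after the length and GC correction: P3H4 (0.00058), PPIB (0.15), FKBP10 (0.063), HAND2 (0.12) and GATA3 (0.042 on the log2 scale). COLGALT1 (0.093), AGRN (0.11) and ELAVL4 (-0.20), not called before, were called under it with the opposite sign; the cause was not tested. The shared replicate numbers did not pair libraries (correlations of same-numbered deviations 0.0053, 0.0133 and 0.0030). With the replicate number as a block 2 members were higher and 12 lower. Depth limits the genes under about 1 CPM, such as COL6A3, COL17A1 and COL1A2.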
